A study of Mus musculus with 8 samples.

Results

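The interferon regulatory factors (IRFs) are transcription factors, and 9 genes of the family and its cofactors, Irf1, Irf2, Irf3, Irf4, Irf5, Irf7, Irf8, Irf9 and Irf2bp2, were followed in bone marrow-derived macrophages (BMDMs). These 9 genes were chosen by name from the 54532 genes of the count table, with earlier results of these data known, and all 9 were among the 12911 genes with enough counts to be tested. BMDMs arise when bone marrow cells are cultured with M-CSF, the growth factor of macrophages. RNA was sequenced from BMDMs of wild-type (WT) mice in 4 libraries and from BMDMs of Gsdmd-/- mice, which lack Gsdmd, the gene of the pore-forming protein of pyroptosis, in 4 libraries. All cells were differentiated for 6 days and received no treatment. The WT mice were female C57BL/6J animals aged 6 to 8 weeks from a supplier, whereas the knockout mice came from a donated colony whose background strain and backcrossing were not given in the sources used here, so that genotype and colony cannot be told apart. Neither the labels nor the methods tell if a mouse was used for more than 1 library, so p-values measure only the spread between these libraries. The comparison asks how the loss of Gsdmd bears on resting macrophages.

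IRFs share a DNA-binding domain that recognises the interferon-stimulated response element (ISRE), a repeat of GAAA. Irf3 and Irf7 are phosphorylated by the kinases TBK1 and IKKe downstream of nucleic acid sensors and then drive the type I interferon genes, and Irf9 is the DNA-binding subunit of the ISGF3 complex, which holds Stat2 and carries the interferon signal to antiviral genes. Irf1 drives antigen presentation genes, Irf2 binds the same sites, often as its antagonist, and also activates Gsdmd, and Irf4, Irf5 and Irf8 set the lineage and the polarization of myeloid cells together with PU.1 and other partners. Irf2bp2 is a corepressor that binds Irf2.

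Total counts ranged from 14935114 to 16794810 per library. Values are CPM, which are counts scaled for the depth of each library with TMM factors, and a count of 0 allows up to 3 counts, or 0.177 to 0.199 CPM, which covers counting error only. The targeted gene Gsdmd fell to 16.2 ± 1.56 CPM (SD, n = 4) in Gsdmd-/- from 75.2 ± 14.1 CPM (SD, n = 4) in WT, a log2 fold change of -2.22 ± 0.14 (SE), and its groups of libraries did not overlap. The Gsdmd-/- libraries kept 241 to 307 counts of Gsdmd each, and the extent of the deletion was not given in the sources used here. The first principal component held 43.6% of the variance and set WT 2 and WT 3 (scores 45.4 and 38.8) apart from the other 6 libraries (-25.9 to -7.19), including the other two WT libraries, so calls that changed without WT 2 and WT 3 are given both ways. Of the macrophage markers, all 10 were tested, and Csf1r was between 937 and 1309.8 CPM and Lyz2 between 12978 and 20736 CPM. Of 10 B and T cell markers only Lck had enough counts to be tested, Cd2 had 89 counts over all libraries, Cd3d had none, and the list summed to 2.19 to 2.55 CPM in WT and 2.58 to 2.85 CPM in Gsdmd-/-. Of 10 neutrophil and progenitor markers 3 were tested, the neutrophil marker Ly6g had 0 counts, and the list's sum was almost all Kit and S100a8.

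Levels can be compared between genes only per length, and CPM was divided here by the exon length of each gene in kilobases. On this scale Irf5, which drives inflammatory cytokine genes, was the most abundant member in both genotypes, at 82.0 ± 25.1 CPM per kb (SD, n = 4) in WT and 76.8 ± 7.17 CPM per kb in Gsdmd-/-. It was followed by Irf2bp2, at 25.5 ± 1.78 and 25.5 ± 1.21 CPM per kb. The libraries of these genes did not overlap with each other or with those of the next gene in either genotype. In WT the order continued with Irf4 (17.1 ± 3.24 CPM per kb), Irf8 (13.5 ± 2.41), Irf1 (10.03 ± 1.53), Irf3 (8.93 ± 1.13), Irf9 (6.08 ± 2.08), Irf2 (5.58 ± 0.32) and Irf7 (3.76 ± 4.15), and each of these overlapped with its neighbour in the order. In Gsdmd-/- Irf8 (13.8 ± 0.70 CPM per kb) stood beside Irf4 (13.4 ± 1.61), with overlapping libraries, and Irf3 (7.81 ± 0.85) was above Irf1 (5.90 ± 0.72), the lowest Irf3 library being at 6.74 and the highest Irf1 library at 6.69 CPM per kb. Irf1 overlapped with Irf9 (5.62 ± 0.95 CPM per kb) and Irf9 with Irf2 (4.75 ± 0.03), and Irf7 was below all of them, between 1.51 and 2.79 CPM per kb. The order of Irf1 and Irf3 was thus not the same in the 2 genotypes, although in WT their libraries overlapped.

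**Figure D1:**
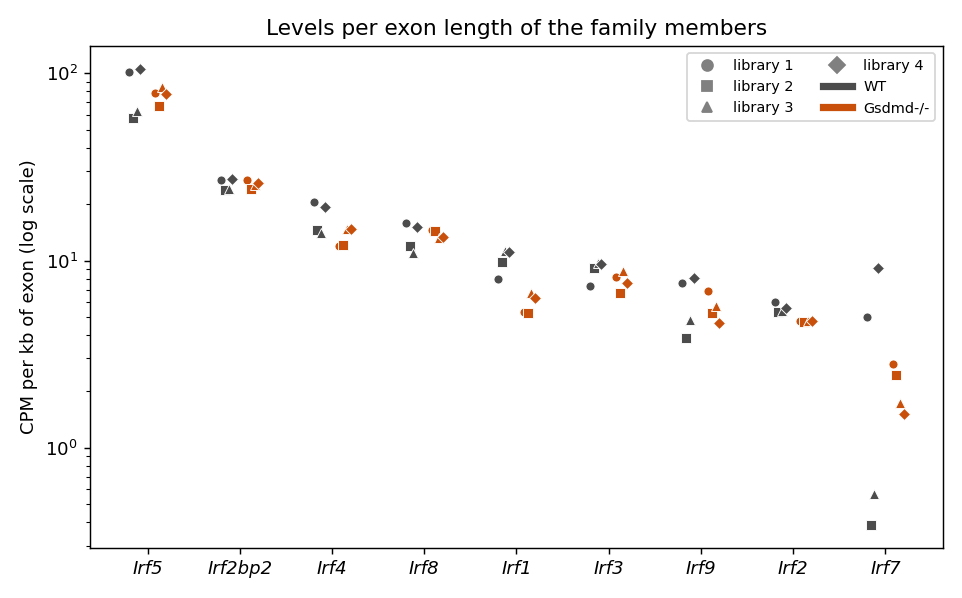
CPM per kilobase of exon (log scale) of the 9 members, ordered by their mean in WT, with 1 point per library and the genotype in colour. Irf5 lies between 57.6 and 106 CPM per kb in WT, above every other member, while Irf7 spans 0.388 to 9.11 CPM per kb in WT and only 1.51 to 2.79 CPM per kb in Gsdmd-/-.

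Promoters are shown for the member that passed the test (Irf1), for the member whose level was lower without overlap but did not pass it (Irf2), for the other member with a searched motif (Irf8) and for the member that varied most between libraries (Irf7). Each is the 250 bases before the start of the first RefSeq transcript window of the gene (GRCm38.p6), written 5′ to 3′ along the gene, with matches in capitals. A pair of letter patterns were searched on both strands: the ISRE core GAAANNGAAA, a form of the site that IRFs bind, and the GAS pattern TTCNNNGAA, a form of the gamma-activated site of interferon-induced genes.
Irf1 (chr11:53769764-53770013, + strand): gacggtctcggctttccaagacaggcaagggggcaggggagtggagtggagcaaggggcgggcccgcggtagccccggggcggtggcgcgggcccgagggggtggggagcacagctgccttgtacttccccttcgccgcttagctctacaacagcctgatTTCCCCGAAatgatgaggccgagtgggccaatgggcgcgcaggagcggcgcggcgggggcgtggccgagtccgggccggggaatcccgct
Irf2 (chr8:46739495-46739744, + strand): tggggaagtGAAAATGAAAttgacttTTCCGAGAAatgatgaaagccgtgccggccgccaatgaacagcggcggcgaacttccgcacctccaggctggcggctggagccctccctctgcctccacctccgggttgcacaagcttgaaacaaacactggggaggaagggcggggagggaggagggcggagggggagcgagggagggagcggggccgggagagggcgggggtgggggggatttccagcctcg
Irf8 (chr8:120736108-120736357, + strand): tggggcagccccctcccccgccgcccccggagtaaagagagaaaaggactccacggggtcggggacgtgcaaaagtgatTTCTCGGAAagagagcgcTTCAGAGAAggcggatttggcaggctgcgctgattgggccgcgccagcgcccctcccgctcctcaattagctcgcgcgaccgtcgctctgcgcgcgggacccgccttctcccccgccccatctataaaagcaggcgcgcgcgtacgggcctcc
Irf7 (chr7:141266425-141266674, - strand): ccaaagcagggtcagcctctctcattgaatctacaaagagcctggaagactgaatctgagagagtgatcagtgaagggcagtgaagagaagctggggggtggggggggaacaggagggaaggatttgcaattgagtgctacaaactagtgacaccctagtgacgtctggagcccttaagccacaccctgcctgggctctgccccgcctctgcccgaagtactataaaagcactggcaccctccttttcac
The GAS pattern was found in Irf1, from position -90 to -82 (-1 is the base just before the start), in Irf2, from -224 to -216, and 2 times in Irf8, from -171 to -163 and from -153 to -145. The ISRE core was found only in Irf2, from -241 to -232, where it did not overlap the GAS pattern, and neither pattern was found in the windows of the other 6 members, Irf7 among them. Over 32851 windows of all genes, 2.98% held the ISRE core and 7.02% the GAS pattern. These matches describe letters in the sequence and no binding was measured.

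Of the 9 members, 1 (Irf1) passed an adjusted p under 0.05 against 0.349% of all genes tested, and the same gene alone reached p under 0.05 with a log2 fold change of 0.5 or more in either direction, a cutoff that 4.83% of all genes reached. In Irf1 and Irf2 all Gsdmd-/- libraries were below all WT libraries, whereas 7.59% of all genes tested had no overlap in either direction. The log2 fold change was below 0 in 7 members and above 0 in 2, with a median of -0.19 against -0.0068 over all genes tested. Without WT 2 and WT 3 the log2 fold change was lower than with all libraries in every member but Irf1 and Irf3, and 3 of the 9 members (Irf1, Irf4 and Irf7) reached the cutoff, which 6.19% of all genes reached at that setting. An adjusted p under 0.05 was then found for 1.21% of all genes and, among the members, for Irf7 alone.

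**Figure D2:**
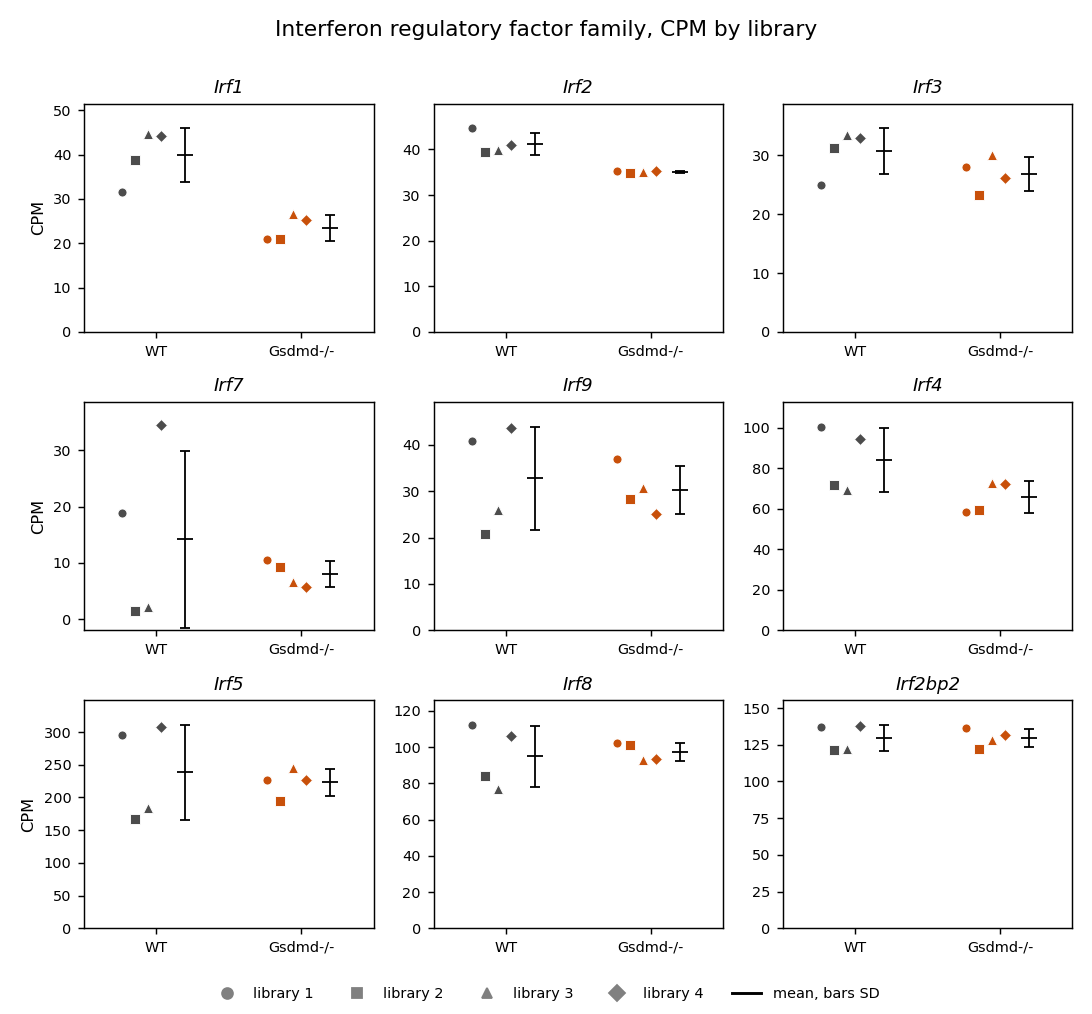
CPM of each member in the 4 WT (grey) and 4 Gsdmd-/- (orange) libraries, with the mean and SD at the right of each group. The Gsdmd-/- points of Irf1 and Irf2 all lie below the WT points, and in Irf7 the points of WT 2 (1.46 CPM) and WT 3 (2.13 CPM) lie below every Gsdmd-/- point while WT 1 (18.8 CPM) and WT 4 (34.4 CPM) lie above.

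Irf1 (ENSMUSG00000018899, chr11:53770014-53778374) was lower in Gsdmd-/- macrophages, at 58.8% of the WT mean. It was at 31.7, 38.9, 44.7 and 44.3 CPM in WT 1 to WT 4 and at 21.06, 20.97, 26.6 and 25.2 CPM in Gsdmd-/- 1 to 4. The lowest WT library was above the highest Gsdmd-/- library, and WT 1 was the WT library nearest to the Gsdmd-/- group. Irf1 thus fell from 39.9 ± 6.08 to 23.5 ± 2.88 CPM (SD, n = 4), a log2 fold change of -0.77 ± 0.13 (SE) with an adjusted p of 0.0468 in edgeR. This p lies close to the threshold. Over the alternatives that keep all 8 libraries the adjusted p ran from 4.94e-05 (DESeq2) to 0.0562 (upper-quartile scaling), and without WT 2 and WT 3 the log2 fold change was -0.70 with an adjusted p of 0.0695. Of the 8 fits that leave out 1 library, only the one without WT 1 kept the call, with an adjusted p of 0.0237, and the others gave 0.0513 to 0.233. The gene Gm17334 on the opposite strand shares 135 exon bases with Irf1 but held only 1 to 4 counts per library.

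Irf2 (ENSMUSG00000031627, chr8:46739732-46847458), which binds the sites of Irf1, had 44.6, 39.3, 39.9 and 41.0 CPM in WT and 35.3, 34.8, 35.0 and 35.3 CPM in Gsdmd-/-. All 4 Gsdmd-/- libraries were below the lowest WT library, and they lay so close together that 99.9% of the genes tested had a larger SD of log2 CPM within Gsdmd-/-. The means were 41.2 ± 2.36 and 35.1 ± 0.214 CPM (SD, n = 4), with a log2 fold change of -0.23 ± 0.08 (SE). The adjusted p was 0.279 in edgeR, so the difference of Irf2 did not pass the correction over all genes, and it ran from 0.155 to 0.605 over the alternatives with all 8 libraries. Irf2bp2 (chr8:126588296-126593986), the corepressor of Irf2, had 122 to 138 CPM in WT and 122 to 137 CPM in Gsdmd-/-. Its log2 fold change was 0.00 ± 0.08 (SE), the smallest of the members. Irf2bp1, a related corepressor, was at 22.2 ± 1.40 and 20.2 ± 1.67 CPM (SD, n = 4) with a log2 fold change of -0.14, and Irf2bpl at 76.0 ± 13.8 and 78.9 ± 4.34 CPM with one of 0.05. Both overlapped between the genotypes.

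Irf7 (ENSMUSG00000025498, chr7:141262706-141266481), the factor that amplifies the interferon response, varied most between libraries. It was at 18.8, 1.46, 2.13 and 34.4 CPM in WT 1 to WT 4, from 309, 24, 35 and 566 counts, and at 10.5, 9.27, 6.59 and 5.70 CPM in Gsdmd-/- 1 to 4. WT 2 and WT 3 were below all Gsdmd-/- libraries and WT 1 and WT 4 above all of them, so the Gsdmd-/- group fell inside the WT range. The highest WT library was 23.5 times the lowest, against 1.85 times in Gsdmd-/-, and only 0.0775% of the genes tested had a larger SD of log2 CPM within WT. The log2 fold change of Irf7 was -0.82 ± 0.78 (SE) with an adjusted p of 0.728 in edgeR. Without WT 2 and WT 3 it was -1.72 with an adjusted p of 0.0178, whereas limma voom with all 8 libraries gave 0.22 and the fit without WT 4 gave 0.11, so the direction of the Irf7 difference depended on the libraries and the fit used. Phrf1, which lies on the opposite strand and shares 45 exon bases with Irf7, held 689 to 1067 counts per library.

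Irf3 (chr7:44997648-45002848), the partner of Irf7 at the interferon genes, did not show this spread. It was at 25.0, 31.4, 33.5 and 32.9 CPM in WT and at 28.0, 23.2, 30.1 and 26.2 CPM in Gsdmd-/-. The groups overlapped, WT 1 being below 3 of the Gsdmd-/- libraries, and the log2 fold change was -0.19 ± 0.12 (SE) with an adjusted p of 0.571 in edgeR, and -0.11 without WT 2 and WT 3. Irf9 (chr14:55603571-55610030) was at 40.8, 20.7, 25.9 and 43.6 CPM in WT and at 37.0, 28.2, 30.7 and 25.0 CPM in Gsdmd-/-. As for Irf7, WT 1 and WT 4 were the highest libraries, but WT 3 was above Gsdmd-/- 4. The log2 fold change of Irf9 was -0.11 ± 0.23 (SE) with an adjusted p of 0.882 in edgeR, and without WT 2 and WT 3 it was -0.48 with an adjusted p of 0.172. Rnf31, on the same strand, shares 123 exon bases with Irf9 and held 386 to 536 counts per library, so some reads may have been counted for either gene. Bcl2l12, on the opposite strand, shares 88 exon bases with Irf3 and held 36 to 62 counts per library.

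Irf4 (ENSMUSG00000021356, chr13:30749226-30766976), a factor of IL-4-driven polarization and of dendritic cells, was at 100.5, 71.6, 69.0 and 94.3 CPM in WT and at 58.4, 59.2, 72.6 and 72.4 CPM in Gsdmd-/-. The groups overlapped because WT 2 and WT 3 were at the level of Gsdmd-/- 3 and 4. The log2 fold change was -0.35 ± 0.14 (SE) with an adjusted p of 0.358 in edgeR, and without WT 2 and WT 3 it was -0.57 with an adjusted p of 0.0588. Irf8 (chr8:120736358-120756694), which directs myeloid progenitors to monocytes and dendritic cells, was at 112, 84.3, 77.0 and 106 CPM in WT and at 102, 101, 92.7 and 93.8 CPM in Gsdmd-/-. Here too the Gsdmd-/- libraries fell between WT 2 and WT 3 on one side and WT 1 and WT 4 on the other, and the log2 fold change was 0.04 ± 0.12 (SE). It turned to -0.17 without WT 2 and WT 3, with an adjusted p of 0.508. Irf5 (chr6:29526625-29541871) was at 295, 167, 184 and 307 CPM in WT and at 227, 195, 245 and 226 CPM in Gsdmd-/-. Again all Gsdmd-/- libraries of Irf5 lay inside the WT range, with a log2 fold change of -0.10 ± 0.19 (SE), and without WT 2 and WT 3 it was -0.44 with an adjusted p of 0.0917. Tnpo3, on the opposite strand, shares 411 exon bases with Irf5, so some reads may have been counted for either gene, and it held 751 to 974 counts per library.

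**Figure D3:**
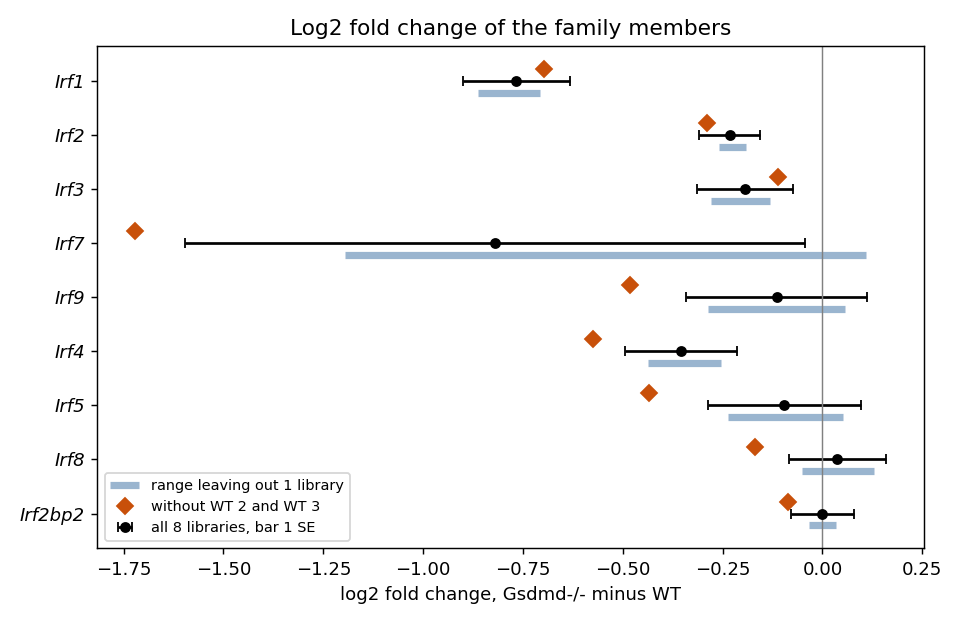
Log2 fold change of each member (Gsdmd-/- minus WT) with all 8 libraries (black, bar 1 SE), the range over the 8 fits that leave out 1 library (blue bar) and the value without WT 2 and WT 3 (orange). Irf1, Irf2, Irf3 and Irf4 stay below 0 throughout, while the blue bar crosses 0 for Irf5, Irf7, Irf8, Irf9 and Irf2bp2, and the orange value of Irf7 lies at -1.72.

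Some markers of other cell states were low in WT 2 and WT 3, as Irf7 was, and others were not. Nor did the Gsdmd-/- libraries always fall between WT 2 and WT 3 and the other WT libraries, as they did in Irf7. The 5 monocyte markers summed to 50.1, 5.86, 6.28 and 48.3 CPM in WT 1 to WT 4 and to 22.7 to 28.0 CPM in Gsdmd-/-, and Ly6c2 was at 35.4, 1.53, 0.427 and 30.3 CPM in WT and at 15.4 to 22.9 CPM in Gsdmd-/-. The chemokine receptor gene Ccr2 was at 10.8, 2.32, 2.62 and 13.4 CPM in WT and at 2.89 to 4.31 CPM in Gsdmd-/-. Of the monocyte markers 4 were tested, and 2 of them were lower in both WT 2 and WT 3 than in the other 6 libraries. The 10 neutrophil and progenitor markers summed to 76.7, 18.9, 18.5 and 67.6 CPM in WT and to 55.2 to 75.4 CPM in Gsdmd-/-, mostly from the progenitor gene Kit. In contrast, the 10 dendritic cell markers summed to 68.6, 101, 97.0 and 68.0 CPM in WT, where WT 2 and WT 3 were highest, and to 55.1 to 61.6 CPM in Gsdmd-/-. The plasmacytoid marker Siglech had 0 counts, and Clec9a was at 16.96, 49.0, 45.2 and 17.6 CPM in WT against 14.4 to 18.3 CPM in Gsdmd-/-. All 5 dendritic cell markers tested had log2 fold changes below 0, with a median of -0.46. Of these 5, Clec9a (-0.95, adjusted p 0.304 in edgeR) and Batf3 reached the cutoff, against 4.83% of all genes tested. Tcf4 was at 30.7 ± 4.16 and 27.5 ± 2.41 CPM (SD, n = 4). It had the highest mean CPM of the list over all 8 libraries, although in WT the mean of Clec9a was higher (32.2 CPM). Clec9a was the only one of the 5 dendritic cell markers tested that was highest of all 8 libraries in WT 2 and WT 3, and without it the sum was 51.6, 52.2, 51.8 and 50.3 CPM in WT and 36.8 to 44.2 CPM in Gsdmd-/-. Macrophage markers summed to 22061, 15995, 17950 and 24577 CPM in WT and to 20142 to 24257 CPM in Gsdmd-/-, mostly from Lyz2, and 5 of the 10 were lowest of all 8 libraries in WT 2 and WT 3, against 17.6% of all genes tested, while Mertk and Adgre1 were highest there. Adgre1, the F4/80 gene, chosen after its values were seen, had no overlap and was lower in Gsdmd-/-, at 303 ± 23.2 and 257 ± 13.7 CPM (SD, n = 4) with a log2 fold change of -0.24 and an adjusted p of 0.31 in edgeR. It was the only 1 of the 10 macrophage markers without overlap, against 7.59% of all genes tested. Log2 fold changes were above 0 in 3 of the 10 (Lyz2, Cd68 and Itgam) and below 0 in 7. The dendritic sum without Clec9a, which includes Batf3, was lower in all Gsdmd-/- libraries, as were Adgre1, Irf1, Irf2 and Ciita. The part of these marker differences in the values of the members and of Batf3 and Ciita was not tested, and in bulk RNA fewer cells of a type and less RNA per cell cannot be told apart.

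The pathway around the members was followed in lists of ligands, receptors, activators, partners, inhibitors and targets. They held 182 other genes of the table, of which 145 were tested. Of these, 2 (Gsdmd and Ciita) passed an adjusted p under 0.05 and 6 reached the cutoff, all of them lower in Gsdmd-/-, and both counts include Gsdmd, the deleted gene. Those with an adjusted p under 0.05 are 1.38% of the genes tested, against 0.349% of all genes. The 6 genes at the cutoff are 4.14%, close to the 4.83% of all genes. Without WT 2 and WT 3, however, 30 of the 145 (20.7%) reached the cutoff, all lower in Gsdmd-/-, against 6.19% of all genes, and 9 passed an adjusted p under 0.05 (6.21% against 1.21%). The count over the lists thus depended on these 2 libraries, and 14 of the 30 genes were antiviral genes. Genes named for that setting alone were chosen after their values were seen. In 14 genes all Gsdmd-/- libraries were below, and in 2 above, all WT libraries (11.03% against 7.59% of all genes), and the median log2 fold change was -0.06, or -0.19 without WT 2 and WT 3.

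**Figure D4:**
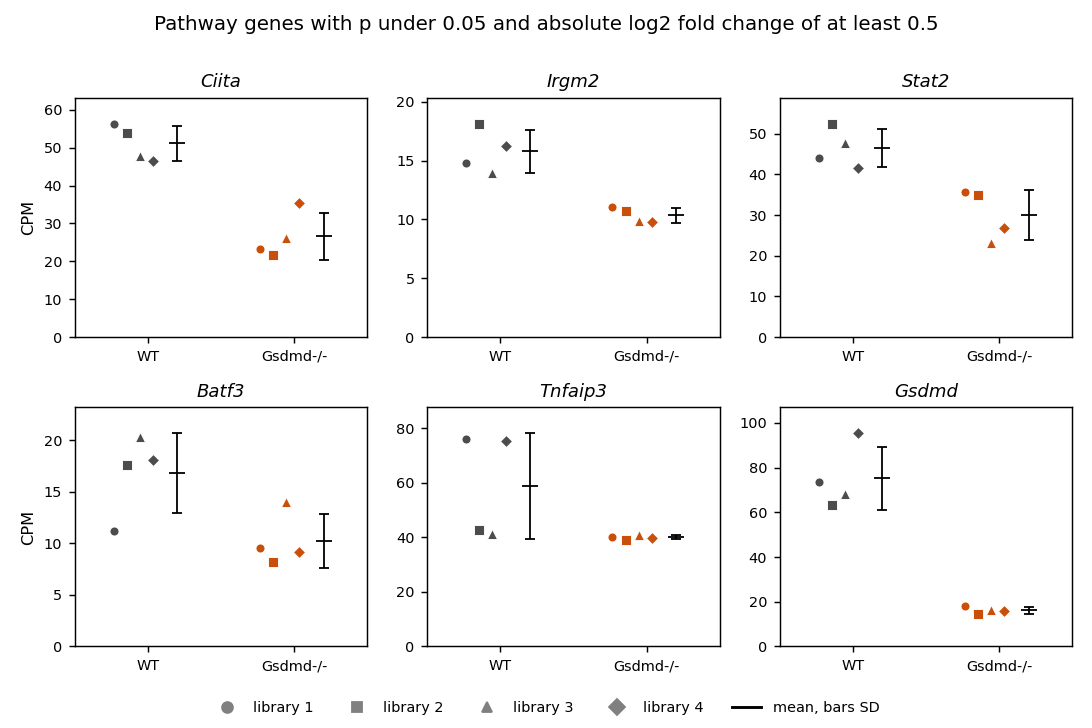
CPM of the 6 pathway genes at the cutoff (p under 0.05 and a log2 fold change of 0.5 or more in either direction) in the 4 WT and 4 Gsdmd-/- libraries, with the mean and SD. All 6 are lower in Gsdmd-/-; the points overlap in Batf3, and Tnfaip3 is high only in WT 1 (76.0 CPM) and WT 4 (75.1 CPM).

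Of the ligands, none of 21 interferon genes was expressed at a level that could be tested. In 19 of them no count was found, and the 8 libraries together held 1 count of Ifnab and 6 of Ifnk. Of 11 receptor, JAK and STAT genes 10 were tested, with 3 log2 fold changes above and 7 below 0 and a median of -0.06, or -0.14 without WT 2 and WT 3. Stat2, a partner of Irf9 in ISGF3, was the only one at the cutoff. It was at 44.0, 52.4, 47.8 and 41.6 CPM in WT and at 35.6, 34.8, 23.1 and 26.7 CPM in Gsdmd-/-. No library overlapped, and WT 2 and WT 3 were here the highest, unlike for Irf7 and Irf9. The log2 fold change of Stat2 was -0.63 ± 0.15 (SE) with an adjusted p of 0.124 in edgeR, and Stat2 was again the only gene of its list at the cutoff without WT 2 and WT 3. The genes of this list with the highest CPM, which is not scaled for length, were Jak1, a kinase shared by the interferon receptors, at 309.5 ± 54.6 and 294 ± 14.5 CPM (SD, n = 4), and Ifngr2, a chain of the interferon-gamma receptor, at 127 ± 10.3 and 149.8 ± 8.41 CPM with a log2 fold change of 0.24 and an adjusted p of 0.318 in edgeR.

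All 29 sensors, adaptors and kinases that activate IRFs were tested and none reached the cutoff, with 21 values below 0 and a median of -0.06, whereas 4 reached it without WT 2 and WT 3 (13.8%, against 6.19% of all genes), none of them with an adjusted p under 0.05. Unc93b1, which carries nucleic acid-sensing Toll-like receptors to the endosome, had the highest CPM without scaling for length, 425 ± 35.5 CPM in WT and 388 ± 16.3 CPM in Gsdmd-/- (SD, n = 4). Tlr7, a receptor for single-stranded RNA upstream of Irf5 and Irf7, was at 96.4 ± 21.5 and 116 ± 14.9 CPM. Of the DNA-binding partners and cofactors 13 of 15 were tested. Spi1, which encodes PU.1, the partner of Irf4 and Irf8, was at 544 ± 80.6 and 525 ± 49.7 CPM with a log2 fold change of -0.05. Batf3, a partner of Irf4 and Irf8 in dendritic cells, was the only one at the cutoff, at 11.2, 17.6, 20.3 and 18.1 CPM in WT and 9.58, 8.15, 14.003 and 9.14 CPM in Gsdmd-/-. WT 1 was below Gsdmd-/- 3, and the log2 fold change of Batf3 was -0.72 ± 0.21 (SE) with an adjusted p of 0.232 in edgeR. It was -0.52 without WT 2 and WT 3, where no gene of the list was at the cutoff. The acetyltransferase Ep300 was at 118 ± 28.7 and 97.6 ± 24.1 CPM.

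All 15 negative regulators were tested, 9 with values above and 6 below 0. Ptpn6, the gene of the phosphatase SHP-1, and Nlrx1, a mitochondrial inhibitor of antiviral signalling, both named after their values were seen, were lower without overlap, each with a log2 fold change of -0.45 and with adjusted p of 0.0564 and 0.115 in edgeR. Nlrc3, an inhibitor of nucleic acid sensing, also named after its values were seen, was the only one higher without overlap, with a WT mean of 11.7 ± 1.71 CPM and a Gsdmd-/- mean of 15.5 ± 1.88 CPM (SD, n = 4), with a log2 fold change of 0.40 and an adjusted p of 0.301 in edgeR. Tnfaip3, which encodes the ubiquitin-editing enzyme A20, was the only one at the cutoff, with 76.0, 42.6, 41.1 and 75.1 CPM in WT and 40.3, 39.2, 40.9 and 39.9 CPM in Gsdmd-/-. WT 2 and WT 3 lay just above the Gsdmd-/- libraries, and the log2 fold change was -0.55 ± 0.20 (SE) with an adjusted p of 0.319 in edgeR, and -0.92 with an adjusted p of 0.00183 without WT 2 and WT 3. Ptpn11, a phosphatase that acts on JAK and STAT proteins, was at 143 ± 4.93 and 123 ± 5.24 CPM (SD, n = 4), without overlap, and its adjusted p was 0.269 in edgeR. It had the second highest mean CPM of the list over all 8 libraries, not scaled for length, although in Gsdmd-/- the mean of Socs3 was higher (126 CPM). Lyn, a kinase that inhibits Irf5, was at 168 ± 9.13 and 161 ± 7.07 CPM.

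Of 31 targets driven through Irf1, 25 were tested, 10 with values above and 15 below 0, with a median of -0.04, or -0.16 without WT 2 and WT 3. Ciita, the master regulator of the MHC class II genes, fell. It was at 56.3, 53.9, 47.8 and 46.6 CPM in WT and at 23.2, 21.6, 26.1 and 35.3 CPM in Gsdmd-/-. The groups did not overlap, and the log2 fold change was -0.95 ± 0.15 (SE) with an adjusted p of 0.0339 in edgeR, 0.0411 without WT 2 and WT 3, and 0.00649 to 0.164 when 1 library was left out. That call was lost in 6 of those 8 fits and kept without WT 4 or without Gsdmd-/- 4. With the replicate block the call of Ciita was lost too, at an adjusted p of 0.0835 in edgeR. Dexi, on the opposite strand, shares 329 exon bases with Ciita and held 235 to 378 counts per library. Irgm2, an immunity-related GTPase, was at 15.8 ± 1.82 and 10.4 ± 0.647 CPM (SD, n = 4) without overlap, with a log2 fold change of -0.61 and an adjusted p of 0.0751 in edgeR. The genes of this list with the highest CPM, not scaled for length, overlapped between the genotypes. B2m, the light chain of MHC class I, was at 3375 ± 1292 and 4339 ± 353 CPM with a log2 fold change of 0.36, and Lgals3bp, a secreted glycoprotein, at 566 ± 146 and 553 ± 31.3 CPM with one of -0.03.

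Of the antiviral genes driven through ISGF3 or Irf7, 30 of 31 were tested and none reached the cutoff, with 13 values above and 17 below 0 and a median of -0.09. Without WT 2 and WT 3 the median was -0.55 and 14 of the 30 reached the cutoff (46.7%, against 6.19% of all genes), all lower in Gsdmd-/-, of which Oas1g (-0.79, adjusted p 0.017 in edgeR) and Oas3 (-0.71, adjusted p 0.023), sensors of double-stranded RNA, also passed the correction (6.67%, against 1.21% of all genes). The WT libraries differed among themselves. In 18 of the 30 genes WT 2 and WT 3 were the 2 lowest of all 8 libraries, which was so for 17.6% of all genes tested, and in 22 they were the 2 lowest WT libraries, against 28.7% of all genes. Leaving out WT 2 and WT 3 raises the WT mean of such genes. The counts without them are thus no separate support for lower antiviral genes in Gsdmd-/-. Ly6e, which had the highest CPM of the list without scaling for length, was at 1019, 315, 344 and 1179.6 CPM in WT and at 757, 734, 905 and 777 CPM in Gsdmd-/-, so the Gsdmd-/- group fell inside the WT range, as for Irf7. Rtp4 and Ifitm3, named after their values were seen, were likewise lowest in WT 2 and WT 3, but in Ifitm3 Gsdmd-/- 1 was above WT 4. Rtp4 was at 18.7, 0.488, 0.549 and 19.1 CPM in WT and at 5.23 to 13.2 CPM in Gsdmd-/-, and Ifitm3, which blocks viral entry, at 120.4, 13.4, 15.4 and 112 CPM in WT and at 83.2 to 116 CPM in Gsdmd-/-. Other genes of the list did not follow Irf7. Samhd1, which limits viral replication by degrading nucleotides, was at 320.5 ± 15.3 and 288 ± 12.8 CPM (SD, n = 4), and Adar, Parp14 and Tor3a, also named after their values were seen, were lower in all 4 Gsdmd-/- libraries than in any WT library, with log2 fold changes of -0.37, -0.49 and -0.25 and adjusted p of 0.31, 0.115 and 0.266 in edgeR. These 3 were the only genes of the 30 without overlap, not far from the 7.59% of all genes tested.

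**Figure D5:**
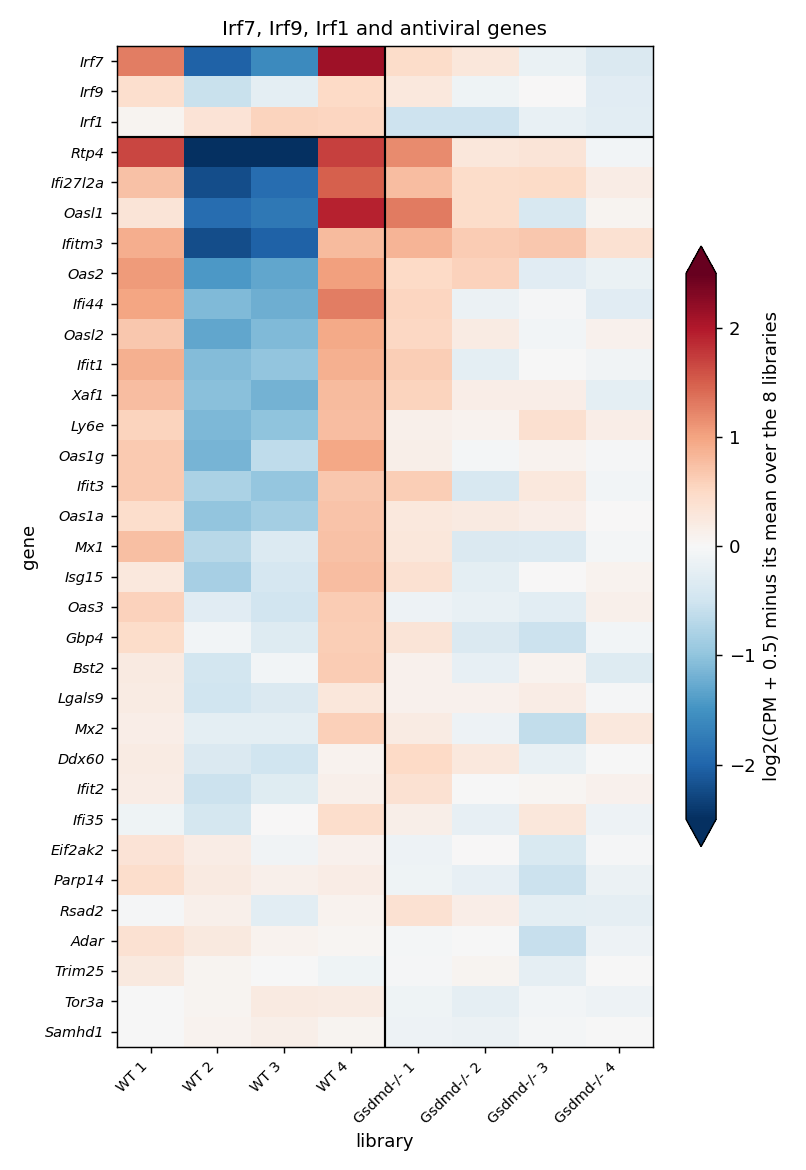
Log2(CPM + 0.5) minus its mean over the 8 libraries for Irf7, Irf9, Irf1 and the 30 antiviral genes tested, by library (red higher, blue lower), with the antiviral genes sorted by how far WT 2 and WT 3 lie below WT 1 and WT 4. Most upper rows share the pattern of Irf7, blue in WT 2 and WT 3, red in WT 1 and WT 4 and pale in Gsdmd-/-, while Irf1 and the lowest rows do not.

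All 13 pyroptosis genes of the table that Irf1, Irf2 or Irf8 drive were tested, and Gsdmd, the deleted gene, was the only one at the cutoff, which Zbp1 and Nlrp3 reached as well without WT 2 and WT 3 (23.1% of the list with Gsdmd, against 6.19% of all genes), Nlrp3, an inflammasome sensor, with a log2 fold change of -0.78 and an adjusted p of 0.00646 in edgeR. Casp1, which encodes the inflammasome protease, was at 67.0 ± 10.7 and 79.5 ± 9.54 CPM (SD, n = 4) with a log2 fold change of 0.25 and an adjusted p of 0.489 in edgeR. Naip2, a sensor of bacterial secretion systems, was at 84.2 ± 14.3 and 79.7 ± 10.8 CPM. Of 9 cytokines driven through Irf5, 5 were tested and none reached the cutoff, whereas without WT 2 and WT 3 Il1b and Ccl5 did (40% of the list, against 6.19% of all genes), Ccl5 with a log2 fold change of -1.44 and an adjusted p of 0.00536 in edgeR (20% of the list passed, against 1.21% of all genes). Ccl3 was at 289.8 ± 77.0 and 303 ± 42.9 CPM and Ccl4 at 106 ± 36.9 and 115 ± 27.9 CPM, and in 4 of the 5, as in Irf5 itself, WT 2 and WT 3 were the lowest of all libraries. Of 12 genes of Irf4 and IL-4 polarization, 9 were tested, all with values below 0 and a median of -0.38, and none reached the cutoff. Without WT 2 and WT 3 the median was -0.55 and 4 reached it (44.4%, against 6.19% of all genes), of which Pdcd1lg2, a checkpoint ligand, at -1.30 (adjusted p 0.00496 in edgeR) and Mgl2, a lectin, at -1.12 (adjusted p 0.00858) passed the correction (22.2%, against 1.21% of all genes). Mrc1, the mannose receptor, was at 704 ± 124 and 620.4 ± 40.1 CPM with a log2 fold change of -0.18, and Stat6, the transcription factor of IL-4 signalling, at 229 ± 20.3 and 228 ± 20.8 CPM. Il4ra, the IL-4 receptor chain, named after its values were seen, was at 193 ± 5.83 and 155 ± 5.91 CPM without overlap, with a log2 fold change of -0.31 and an adjusted p of 0.115 in edgeR.

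Genes with the most similar form over the 8 libraries were sought among the 12034 other tested genes with a mean of at least 1 CPM, as the smallest root mean square difference of centred log2 CPM. For Irf1, which itself deviated from its own mean by 0.42, these were Procr (0.11), Ppfia4 (0.12), P2rx5 (0.13), Hgsnat (0.14) and Lbh (0.15). Since they were chosen for the form of Irf1, their values of -0.59 to -0.93 for the log2 fold change are a description. For Irf7, which deviated by 1.38, they were Il1r2 (0.30), Apoe (0.34), C1qc (0.35), Ms4a6c (0.36) and Ifi44 (0.38). Apoe was at 1008 CPM in WT 1, 116 in WT 2, 125 in WT 3 and 1299 in WT 4, and between 452 and 613 CPM in Gsdmd-/-. One of the 5 genes, Ifi44, is an interferon-induced gene of the antiviral list.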

How the data were processed

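RNA-seq libraries were prepared with the TruSeq kit from total RNA, and a service company sequenced them. The authors deposited read counts per gene, not normalized, in 1 table for 8 libraries. Per the labels the build was mm10. The aligner, the counter, its strand setting and the annotation were not given in the sources used here. Columns were matched to samples by their labels.

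In edgeR 4.0.16 under R 4.3.3, low genes were removed with filterByExpr, libraries were scaled by TMM, and the genotypes were compared with the quasi-likelihood test (two-sided, genotype only). The P values were adjusted by Benjamini-Hochberg over all 12911 genes tested. Adjusted p under 0.05, and p under 0.05 with a log2 fold change of 0.5 or more in either direction, were counted. The SE is the log2 fold change divided by the root of the F statistic. Before use the test was also tried on simulated counts, and all values given here are from the deposited counts. CPM include the TMM scaling, and a prior count of 2 was added for log2 CPM. Positions and exon lengths are from GENCODE M21 (GRCm38), which held 99.8% of the genes, and promoters from RefSeq (GRCm38.p6), which matched 9 of 9 members. As alternatives, RLE and upper-quartile scaling, limma 3.58.1 (voom), DESeq2 1.42.0, omission of the filter, a stricter filter of 10 counts in each library, a replicate block and fits without 1 library or without WT 2 and WT 3 were run. The study's methods name limma, and a figure legend edgeR with the same cutoff.

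The members, lists and alternatives were chosen with earlier results of these data known. Named were all members with Irf2bp1 and Irf2bpl, Gsdmd, the genes of each list at the cutoff or with an adjusted p under 0.05, the 2 genes of each list with the highest mean CPM, not scaled for length, and, for the member with the lowest p and the one with the largest SD, the 5 genes most like it. The rule held 1 more gene by name, which is not reported here. No 2 libraries of the same genotype agreed within sampling noise (12 pairs, chi-square per degree of freedom 5.92 to 82.0).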

Additional observations from a re-analysis of the deposited data

Results flagged for a closer look

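Among 22 groups of 4 libraries (9 members with Irf2bp1 and Irf2bpl in each genotype), 1 held a library far from the other three by Dixon's test, and chance flags about 1 in 20 groups. Irf2bpl was at 72.4 CPM in Gsdmd-/- 3, the lowest of that group, against 80.6 to 81.4 CPM in the other Gsdmd-/- libraries.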

How the results depend on the processing

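The log2 fold change of Irf1 was below 0 under every alternative. Its adjusted p was over 0.05 with upper-quartile scaling (-0.756), limma voom (-0.762), without WT 2 and WT 3 (-0.697) and in 7 of the 8 fits without 1 library (log2 fold change over all 8 -0.862 to -0.706, the lowest without WT 1, which kept the call), and members with an adjusted p under 0.05 were then 0 with upper-quartile scaling, 0 with voom and 0 to 1 without 1 library. Irf2, Irf3 and Irf4 stayed below 0 and above an adjusted p of 0.05 throughout. Irf7 turned to 0.217 with voom and to 0.00316 with the replicate block, ran from -1.20 to 0.110 without 1 library, and was -1.72 without WT 2 and WT 3. Without 1 library, Irf5 ran from -0.236 to 0.0526, Irf9 from -0.286 to 0.0570, Irf8 from -0.0506 to 0.130 and Irf2bp2 from -0.0338 to 0.0334. Without WT 2 and WT 3, Irf8 was -0.168 and Irf2bp2 -0.0871, and Irf2bp2 was -0.00275 with RLE, -0.00276 with DESeq2 and -0.00555 with at least 10 counts. Members at the cutoff were 3 without WT 2 and WT 3. The causes were not tested.

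Pathway genes with an adjusted p under 0.05 were 2, but 8 with DESeq2, 1 with the replicate block, 9 without WT 2 and WT 3 (Ccl5, Ciita, Gsdmd, Mgl2, Nlrp3, Oas1g, Oas3, Pdcd1lg2 and Tnfaip3) and 1 to 2 without 1 library. At the cutoff they were 6, but 30 of 145 (20.7%) without WT 2 and WT 3 and 6 to 10 without 1 library. Over all genes the count with an adjusted p under 0.05 was 45, but 292 with DESeq2, 109 with no filter, 25 with the replicate block, 161 without WT 2 and WT 3 and 14 to 84 without 1 library. At the cutoff it was 623, but 823 (6.19%) without WT 2 and WT 3, 1204 with no filter and 469 to 1022 without 1 library. The replicate numbers did not pair the libraries, since the deviations of same-numbered libraries correlated at 0.03, 0.18, 0.04 and -0.20, and no WT library but WT 2 correlated best with its own number. In the replicate block the call of Ciita was lost (adjusted p 0.0835) and Irf1 kept its own (0.0407).

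Counts limit Irf7 most (24 counts in WT 2), and the interferon genes could not be compared at this depth.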

Other observations

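Ratios between members were computed after their values were seen and were not tested. Of the ratios given here only that of Irf8 to Irf4 had no overlap between the genotypes. The ratio of Irf8 to Irf4 per exon length was 0.777, 0.818, 0.775 and 0.782 in WT 1 to WT 4 and 1.22, 1.19, 0.888 and 0.901 in Gsdmd-/- 1 to 4. All Gsdmd-/- libraries were above all WT libraries, and WT 2 and WT 3, which were the lowest libraries for Irf5, Irf7 and Irf8, were close to WT 1 and WT 4 in this ratio. The ratio of Irf1 to Irf2 per exon length was 1.32, 1.84, 2.08 and 2.01 in WT and 1.11, 1.119, 1.41 and 1.33 in Gsdmd-/-, so that WT 1 lay inside the Gsdmd-/- range. Irf7 to Irf3 was 0.684, 0.0426, 0.0580 and 0.952 in WT and 0.198 to 0.364 in Gsdmd-/-. Irf4 to Irf5 was 0.182 to 0.253 in WT and 0.152 to 0.190 in Gsdmd-/-. Irf5 held 42.2% to 51.1% of the summed level per exon length of the 9 members in WT and 47.2% to 51.0% in Gsdmd-/-.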
